A study of Caenorhabditis elegans with 33 samples.

Results

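The transcripts of 8 genes of the target of rapamycin (TOR) pathway were followed across 4 strains of Caenorhabditis elegans and 3 RNAi foods. The genes were chosen by name as core parts of the pathway, and all 8 were found among the 17907 genes of the count and TPM tables. They are let-363, daf-15, rict-1, sinh-1, raga-1, ragc-1, rheb-1 and rsks-1. The strains were the double mutant eat-2(ad465);mxl-2(tm1516), the single mutants eat-2(ad465) and mxl-2(tm1516), and the wild type N2. The eat-2 mutant pumps food slowly and is used as a genetic model of dietary restriction, and mxl-2 encodes the Max-like partner of the Myc-family factor MML-1. Each strain ate HT115(DE3) E. coli that made double-stranded RNA against daf-16 (a FOXO factor), made it against pha-4 (a FOXA factor), or carried the empty vector L4440 (EV). All animals were hermaphrodites taken whole at adult day 2, grown at 16 °C to the L4 stage and at 20 °C afterwards, and all received the DNA synthesis inhibitor FUdR against progeny. Each of the 12 groups had 3 libraries, except that the 3 eat-2 groups had 2 libraries each, giving 33 in all.

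TOR is a protein kinase that couples nutrient supply to growth. It acts in complexes: TORC1 contains Raptor and drives translation and growth while holding back autophagy, and TORC2 contains Rictor and Sin1 and acts on kinases of the AGC family. Amino acids reach TORC1 through the Rag GTPases at the lysosome, and Rheb activates it there. In C. elegans lowered TORC1 activity extends lifespan, and TOR is one of the pathways studied in dietary restriction. The kinase activity itself is set largely on the protein, so that a transcript level is not a measure of pathway activity.

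The genes fall into 3 groups by role. The kinase and its complex subunits are let-363 (TOR itself), daf-15 (Raptor), rict-1 (Rictor) and sinh-1 (Sin1). The GTPases that feed TORC1 are raga-1 and ragc-1 (the Rag pair) and rheb-1 (Rheb). The output kinase is rsks-1 (ribosomal S6 kinase). In the WBcel235 annotation let-363 lies on chromosome I from 5245743 to 5263424 on the plus strand, with 8560 exonic bases in 32 exon blocks. The Raptor gene daf-15 (IV, 9386208 to 9394979, plus) has 5883 exonic bases, rict-1 (II, 13098239 to 13116810, minus) has 5023, and sinh-1 (II, 12228305 to 12238242, plus) has 3610. The GTPase genes are shorter, with 1266 exonic bases in raga-1 (II, 11301359 to 11302776, plus), 1101 in ragc-1 (IV, 11603613 to 11604933, minus) and 1192 in rheb-1 (III, 9454163 to 9456030, minus). The S6 kinase gene rsks-1 (III, 11245120 to 11252281, plus) has 3050. Exons of other genes cover 1.82% of daf-15, 1.72% of sinh-1 and 0.737% of rict-1, and none of the other 5.

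Total counts ran from 20199019 to 31483909 per library, and the 8 genes had between 269 and 11215 counts in every library. Counts were divided by library totals and TMM factors (CPM), and groups were compared with edgeR's quasi-likelihood test across all genes, called at a Benjamini-Hochberg adjusted p under 0.05. The labels do not say that the libraries of a group came from separate cultures, so the p-values measure the spread between these libraries only. The targeted genes did not follow the labels in every strain. The daf-16 transcript averaged 43.9 ± 2.95 CPM in the double mutant on daf-16 RNAi and 95.2 ± 14.3 CPM in the libraries labelled EV (SD, n = 3 each). The pha-4 transcript averaged 10.4 ± 2.54 CPM in the double mutant libraries labelled pha-4 RNAi and 3.83 ± 0.496 CPM in those labelled EV (SD, n = 3 each), against the labels. In eat-2 the libraries on and off each RNAi overlapped: pha-4 averaged 9.34 ± 5.99 CPM on pha-4 RNAi and 12.3 ± 2.50 CPM on EV, and daf-16 averaged 51.01 ± 26.3 CPM on daf-16 RNAi and 80.2 ± 49.9 CPM on EV (SD, n = 2 each). In N2 the pha-4 transcript averaged 5.07 ± 0.697 CPM on pha-4 RNAi and 14.01 ± 4.34 CPM on EV (SD, n = 3 each), and over N2, mxl-2 and eat-2 it fell by 0.90 on the log2 scale (adjusted p = 0.0242 by edgeR). The mxl-2 transcript was low in both strains that carry tm1516, with group means of 3.19 to 4.94 CPM in double mutant groups and 3.49 to 4.98 CPM in mxl-2 groups, against 61.3 to 70.1 CPM in N2. The eat-2 transcript was scarce everywhere, with group means from 0.062 to 0.203 CPM in the double mutant, 0.0566 to 0.252 CPM in eat-2, 0.200 to 0.719 CPM in mxl-2 and 0.692 to 0.945 CPM in N2, so that the mxl-2 groups overlapped those of both eat-2 mutants. The double mutant libraries are numbered 49 to 57 and the others 1 to 27. What these numbers stand for is not given in the sources used here, and for the double mutant they cannot be told apart from the strain.

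The genes differed widely in level per length. By the deposited TPM, which divide by transcript length, ragc-1 was the most abundant, with a median of 222.6 TPM over the 33 libraries and a range of 166 to 492. Next came rsks-1 with a median of 84.5 TPM and raga-1 with 83.0 TPM, whose ranges over libraries overlapped. The Rheb gene had a median of 44.3 TPM. The long genes of the complexes lay lowest: daf-15 had a median of 25.6 TPM, rict-1 24.3 TPM, let-363 20.6 TPM and sinh-1 12.8 TPM. Neighbours among daf-15, rict-1 and let-363 were not separated beyond their spread. In the double mutant on daf-16 RNAi the distances between the genes were widest, with 420.4 ± 106 TPM of ragc-1 beside 6.04 ± 1.27 TPM of let-363 (SD, n = 3).

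**Figure D1:**
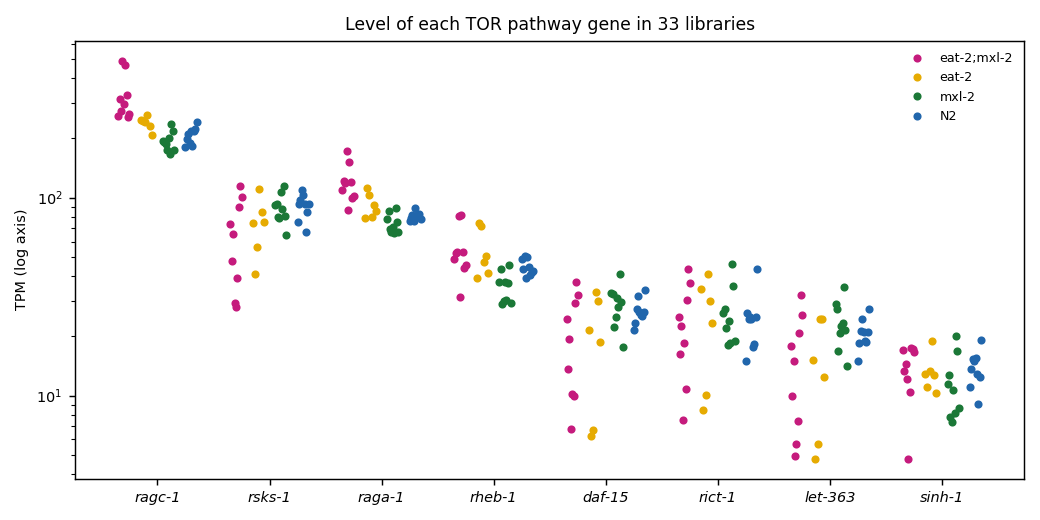
TPM (log axis) of each gene in all 33 libraries, ordered by median; each point is a library, coloured by strain. The medians run from 222.6 TPM for ragc-1 to 12.8 TPM for sinh-1, and daf-15, rict-1 and let-363 each spread over a wide range in eat-2;mxl-2 and eat-2.

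Over all 12 groups 5 of the 8 genes varied, against 46.3% of all 17354 genes tested. The adjusted p of this edgeR test of equal group means was 0.00145 for raga-1, 0.0029 for rsks-1, 0.00372 for ragc-1, 0.0284 for let-363 and 0.0297 for rheb-1. It was 0.0799 for daf-15, 0.136 for sinh-1 and 0.258 for rict-1. For every one of the 8 genes an extreme group mean was that of the double mutant on daf-16 RNAi: it was the lowest of the 12 for let-363, daf-15, rict-1, sinh-1 and rsks-1, and the highest for raga-1, ragc-1 and rheb-1. In whole animals, fewer cells of a type and less RNA per cell cannot be told apart.

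The TOR kinase transcript, let-363, ranged 7.69-fold over the libraries. In the double mutant it had 43.5, 64.3 and 68.7 CPM on daf-16 RNAi, 167, 257 and 219.9 CPM in the libraries labelled pha-4 RNAi, and 139.7, 81.3 and 126 CPM in those labelled EV. In eat-2 it had 44.5 and 238 CPM on daf-16 RNAi, 215 and 117 CPM on pha-4 RNAi, and 163 and 40.6 CPM on EV. The 3 double mutant daf-16 RNAi libraries and 2 eat-2 libraries that stand apart, replicate 1 on daf-16 RNAi and replicate 2 on EV, thus lay far under most others. The mxl-2 strain had 156 to 313 CPM and N2 had 149.7 to 230.4 CPM, with 9 libraries each, and these strains overlapped.

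The Raptor gene daf-15 averaged 58.2 ± 18.3 CPM in the double mutant on daf-16 RNAi, 178 ± 21.1 CPM in its libraries labelled pha-4 RNAi and 102 ± 26.7 CPM in those labelled EV (SD, n = 3 each). Its lowest values, 33.8 and 34.6 CPM, were those of the same pair of eat-2 libraries, and in N2 it ranged only from 142 to 190.1 CPM. The Rictor gene rict-1 had 27.3 to 66.5 CPM in the double mutant on daf-16 RNAi and 80.6 to 110.4 CPM in N2 on daf-16 RNAi. This difference was not called (adjusted p = 0.105 by edgeR). The Sin1 gene sinh-1, the least abundant, averaged 16.08 ± 5.13 CPM in the double mutant on daf-16 RNAi, 16.11 ± 2.65 CPM in mxl-2 and 27.3 ± 2.98 CPM in N2 on the same food (SD, n = 3 each). On that food the sinh-1 values of the double mutant and mxl-2 libraries overlapped.

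The Rag GTPase genes moved the other way. In the double mutant raga-1 had 204.9, 133 and 191 CPM on daf-16 RNAi, 132, 108 and 120.5 CPM in the libraries labelled pha-4 RNAi, and 118, 135 and 136 CPM in those labelled EV. It had 106 to 131 CPM in the 6 eat-2 libraries, 87.9 to 107 CPM in the 9 mxl-2 libraries and 90.4 to 124 CPM in the 9 N2 libraries. Every double mutant library lay above every mxl-2 library, a separation not counted over all genes, while its lower values overlapped eat-2 and N2. Its partner ragc-1 had 337, 208 and 336 CPM in the double mutant on daf-16 RNAi, and 165 to 203 CPM in its 6 other libraries. It had 134 to 208 CPM in eat-2, 135 to 177 CPM in mxl-2 and 134 to 179.7 CPM in N2. For both genes replicate 2 of the double mutant on daf-16 RNAi was well below replicates 1 and 3. The Rheb gene rheb-1 showed the same split, with 77.0, 39.4 and 82.4 CPM in those 3 libraries. It had 43.2 to 69.4 CPM in eat-2, 33.3 to 44.0 CPM in mxl-2 and 38.8 to 55.3 CPM in N2.

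The S6 kinase gene rsks-1 moved with the TOR kinase gene. In the double mutant it had 56.7, 71.6 and 81.5 CPM on daf-16 RNAi, 163, 207 and 195 CPM in the libraries labelled pha-4 RNAi, and 129, 88.5 and 123 CPM in those labelled EV. On daf-16 RNAi it had 97.0 and 239.7 CPM in eat-2, 180.5 to 225 CPM in mxl-2 and 208 to 238 CPM in N2. On that food the double mutant lay below every library of the other strains. The share of all genes separated in this way was not counted, so this is a description only.

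**Figure D2:**
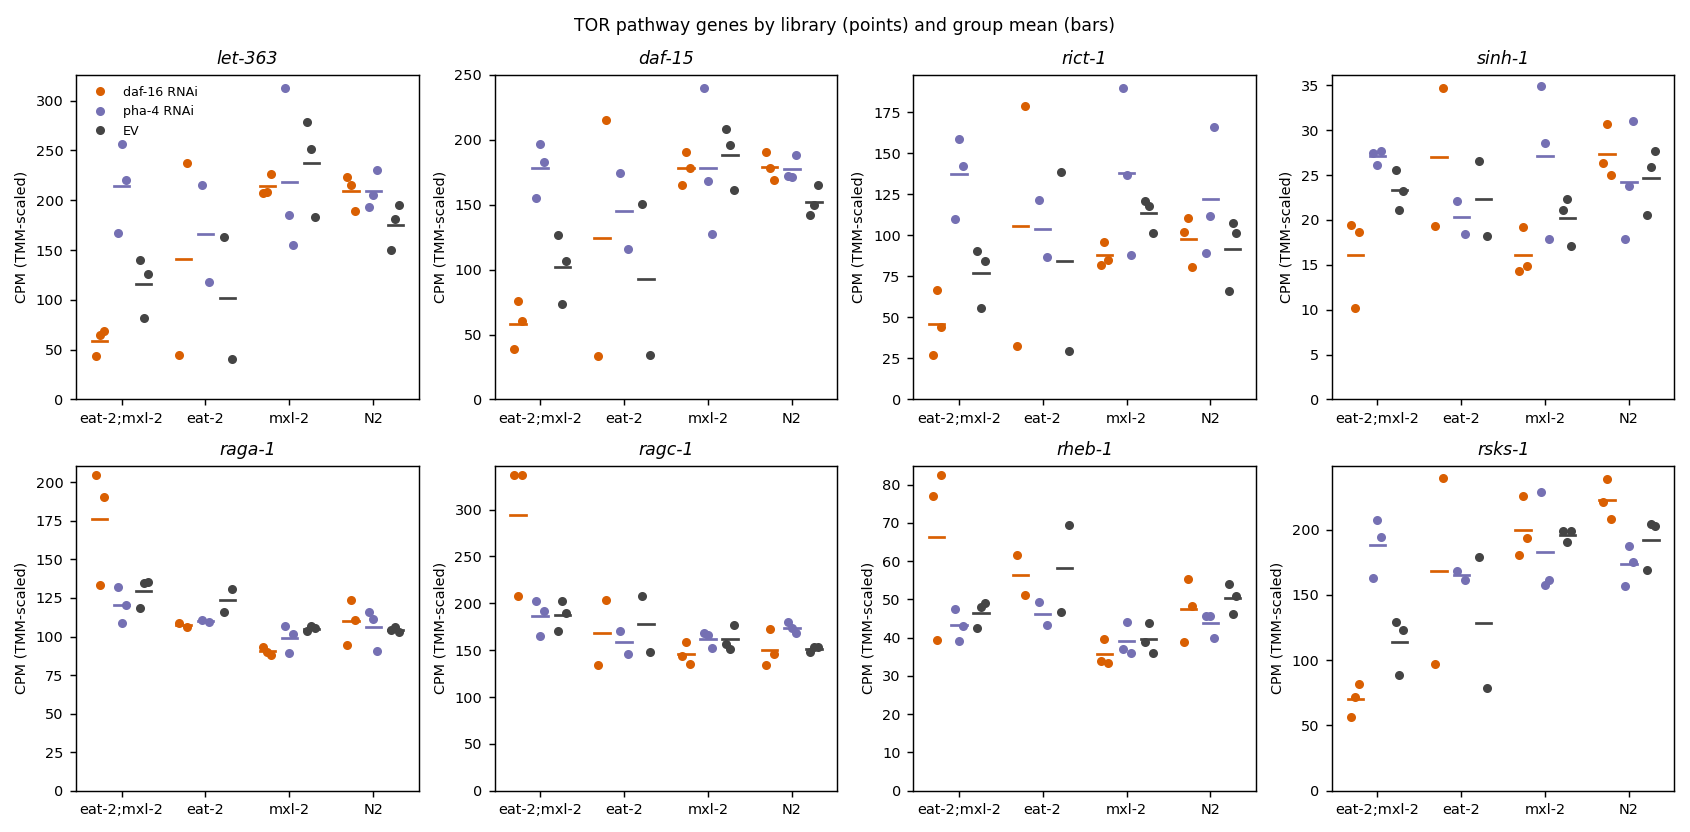
TMM-scaled CPM of the 8 genes; each point is a library and each bar a group mean, with the strains from eat-2;mxl-2 on the left to N2 on the right and the food given by colour. In eat-2;mxl-2 on daf-16 RNAi the group mean is lowest for let-363, daf-15, rict-1, sinh-1 and rsks-1 and highest for raga-1, ragc-1 and rheb-1.

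The double mutant was compared with each other strain over the 3 foods with equal weight, which does not depend on which food label a double mutant library carries. Against mxl-2, 6 of the 8 genes were called, against 29.8% of all genes. There raga-1 rose by 0.51 ± 0.09 on the log2 scale (SE, adjusted p = 9.51e-05 by edgeR), ragc-1 by 0.48 ± 0.10 (0.00152) and rheb-1 by 0.42 ± 0.12 (0.00936). In the same comparison let-363 fell by 0.98 ± 0.25 (adjusted p = 0.0055), daf-15 fell by 0.83 ± 0.26 (0.0166) and rsks-1 fell by 0.75 ± 0.15 (0.000806). The log2 fold changes of rict-1 (-0.50 ± 0.27) and sinh-1 (0.07 ± 0.16) did not pass.

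Against N2, 5 genes were called, against 25.4% of all genes. The Rag genes rose, raga-1 by 0.39 ± 0.09 (adjusted p = 0.00147 by edgeR) and ragc-1 by 0.46 ± 0.10 (0.00233). The S6 kinase gene rsks-1 fell by 0.77 ± 0.15 (adjusted p = 0.000725), let-363 fell by 0.80 ± 0.25 (0.0211) and daf-15 fell by 0.73 ± 0.26 (0.0369). Without replicate 2 of the double mutant labelled EV the adjusted p of let-363 was 0.0506, and leaving out any of 14 libraries took daf-15 past 0.05, to 0.0834 at most (those of N2 other than EV replicate 1, and double mutant replicates 1 and 3 on daf-16 RNAi, 1 and 3 labelled pha-4 RNAi and 2 and 3 labelled EV). Against eat-2, 2 genes were called, against 23% of all genes: raga-1 rose by 0.30 ± 0.10 (adjusted p = 0.0257) and ragc-1 by 0.37 ± 0.12 (0.0273). Both of these calls were lost when either of the 2 eat-2 libraries that stand apart was left out, with raga-1 at 0.24 without EV replicate 2 and 0.23 without daf-16 RNAi replicate 1, and ragc-1 at 0.21 and 0.20 (log2). Without both of them, where 28.5% of all genes were called, raga-1 was called (0.27, adjusted p = 0.0374) and ragc-1 was not (0.13, adjusted p = 0.283). In all, leaving out 1 of 9 libraries ended the raga-1 call (eat-2 libraries other than daf-16 RNAi replicate 2, and double mutant replicate 1 on daf-16 RNAi, 1 labelled pha-4 RNAi, and 2 and 3 labelled EV). For ragc-1 these were 8: the 2 eat-2 libraries above, eat-2 pha-4 RNAi replicate 2, and double mutant replicates 1 and 3 on daf-16 RNAi, 1 labelled pha-4 RNAi, and 2 and 3 labelled EV. Against eat-2 the log2 fold change of rsks-1 was -0.42 ± 0.17 (adjusted p = 0.0758), and those of let-363 and daf-15 were -0.24 ± 0.28 and -0.22 ± 0.28.

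Split by food, these edgeR calls were found on daf-16 RNAi, in a fit whose spread is shared by all 33 libraries. On EV alone DESeq2, limma and fits of only the 2 groups called some of the 8 genes against N2 and mxl-2, as given below. Averaged over EV and pha-4 RNAi alone, edgeR called 0 of the 8 genes in the double mutant against mxl-2, N2 or eat-2, where it called 10.2%, 13% and 15.6% of all genes. At an unadjusted p under 0.05 only raga-1 passed, against mxl-2 (0.29 ± 0.10) and N2 (0.25 ± 0.10), and DESeq2 and limma were not run on this average. On daf-16 RNAi alone, 6 genes were called in the double mutant against N2, with 20.1% of all genes called there. On the log2 scale let-363 fell by 1.83 ± 0.45, daf-15 fell by 1.62 ± 0.45, rsks-1 fell by 1.67 ± 0.27 and sinh-1 fell by 0.76 ± 0.27, while raga-1 rose by 0.68 ± 0.15 and ragc-1 by 0.96 ± 0.18 (SE). Against eat-2 on that food 3 genes were called, with 2.3% of all genes called: rsks-1 at -1.27 ± 0.29, raga-1 at 0.71 ± 0.17 and ragc-1 at 0.80 ± 0.21. Against mxl-2 on that food 6 genes were called, with 35.9% of all genes called, and these were the genes called over the 3 foods. A direct test that the food effects are equal in the 4 strains called 6.77% of all genes and 1 of the 8, rsks-1 (F = 4.77, adjusted p = 0.0435 by edgeR). None of the 8 was called in 21 of the 33 refits that left out a library, and with a replicate block rsks-1 had an adjusted p of 0.0762. For the other 7 genes that test gave adjusted p-values from 0.11 for ragc-1 to 0.621 for rict-1. DESeq2 also called ragc-1 (adjusted p = 0.0408). The count without the 2 eat-2 libraries that stand apart is given below, without the share of all genes.

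The libraries also differed in the balance of long and short transcripts. For each library the median deviation of genes with the longest exons (at least 3257 bases) was set against that of genes with the shortest (at most 590 bases). This balance, in log2 units, was lowest in the pair of eat-2 libraries that stand apart, EV replicate 2 (-2.04) and daf-16 RNAi replicate 1 (-1.69). Next came the 3 double mutant libraries on daf-16 RNAi (-1.20, -0.92 and -0.87). Those 5 libraries held all 5 of the lowest values of let-363, and 4 of the 5 lowest values of each of daf-15, rict-1 and rsks-1. They held 4 of the 5 highest values of rheb-1 and 3 of the 5 highest of each of raga-1 and ragc-1. Across the 33 libraries the balance went with log2 CPM at Pearson r = 0.93 for let-363, 0.92 for daf-15, 0.88 for rict-1, 0.80 for rsks-1 and 0.41 for sinh-1. It was -0.73 for rheb-1, -0.54 for raga-1 and -0.22 for ragc-1. These r values describe libraries that share groups, and let-363, daf-15, rict-1 and sinh-1 are themselves among the long genes.

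**Figure D3:**
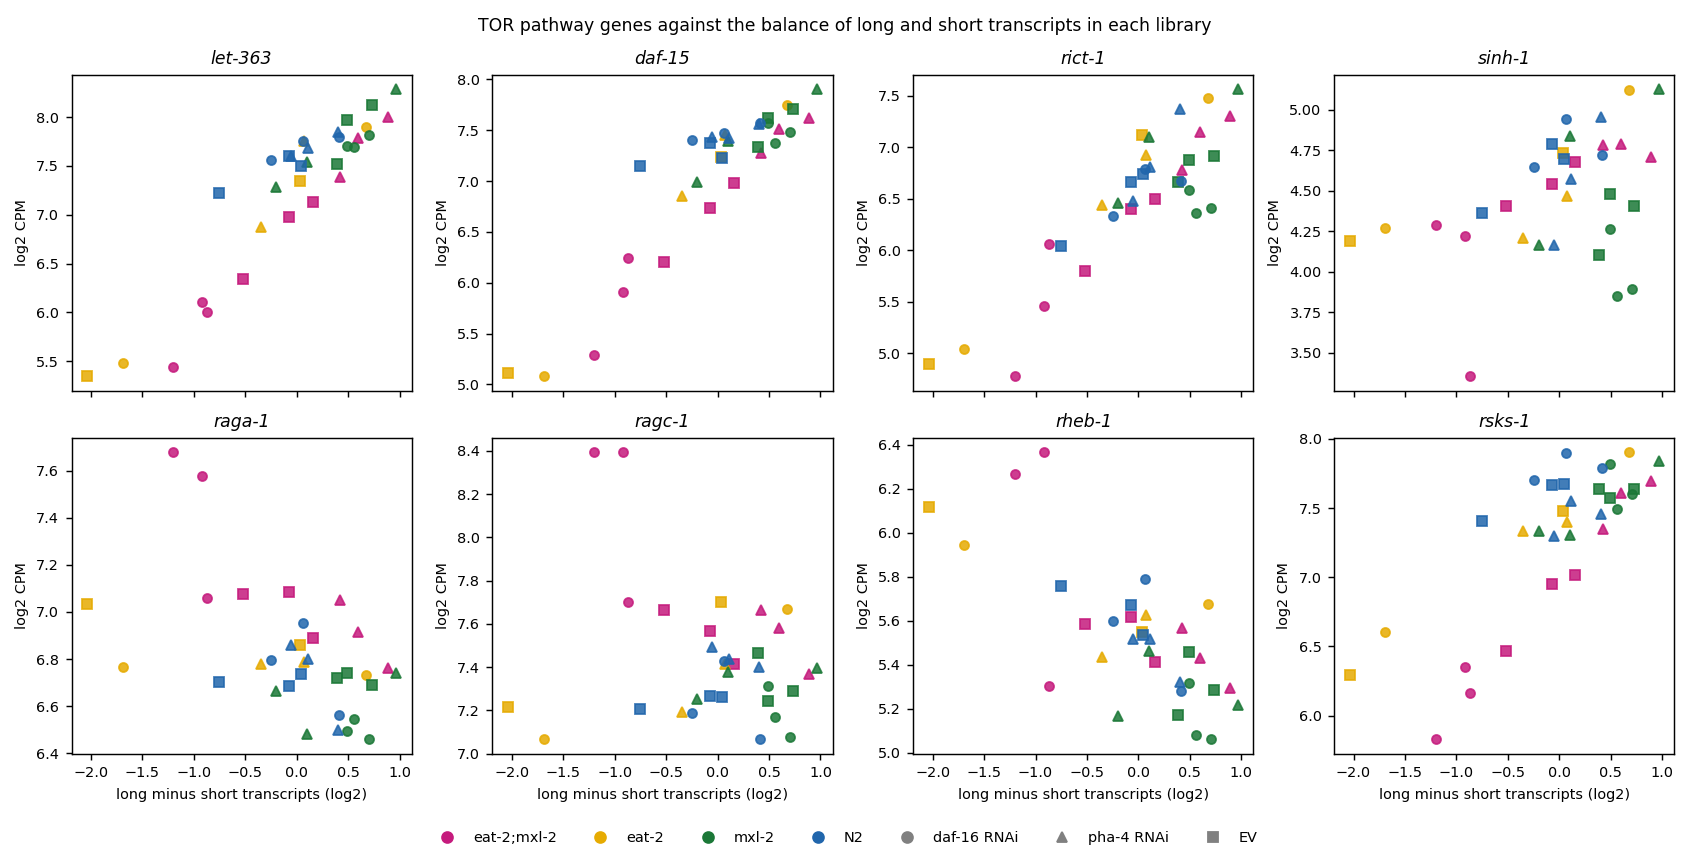
Log2 CPM of each gene (y axis) against the balance of long and short transcripts in the same library (x axis, log2); colour gives the strain and shape the food. The long genes let-363, daf-15 and rict-1 lie along a line (r = 0.93, 0.92 and 0.88), while ragc-1 is high in 2 of the eat-2;mxl-2 daf-16 RNAi libraries and not in the eat-2 libraries with the lowest balance.

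With the trend on exon length removed from each library, the calls parted by gene. The shares of all genes called were then 29.8% against mxl-2, 24.1% against eat-2 and 27.2% against N2. Over the 3 foods let-363 and daf-15 were no longer called in the double mutant against mxl-2 (-0.08 ± 0.11 and -0.12 ± 0.13) or against N2 (-0.20 ± 0.11 and -0.27 ± 0.13). The S6 kinase gene rsks-1 kept its calls, at -0.40 ± 0.07 against mxl-2 and -0.57 ± 0.07 against N2, and was called against eat-2 as well (-0.44 ± 0.08, adjusted p = 0.000426). The Rag genes kept theirs, with raga-1 at 0.48 ± 0.08 and ragc-1 at 0.42 ± 0.10 against mxl-2, and 0.38 ± 0.08 and 0.45 ± 0.10 against N2. The rheb-1 call against mxl-2 also held (0.38 ± 0.11). Another 2 calls appeared for sinh-1, which was called higher in the double mutant than in mxl-2 (0.55 ± 0.14) and lower in mxl-2 than in N2 (-0.47 ± 0.14), where 5.66% of all genes were called. On daf-16 RNAi alone with the same correction, where 18.5%, 3.45% and 32% of all genes were called, rsks-1 remained lower in the double mutant against N2 (-1.01 ± 0.12), eat-2 (-0.85 ± 0.14) and mxl-2 (-0.76 ± 0.12). There raga-1 (0.60 ± 0.13, 0.63 ± 0.15 and 0.79 ± 0.13) and ragc-1 (0.86 ± 0.18, 0.71 ± 0.20 and 0.78 ± 0.18) remained higher. Against mxl-2 on that food rheb-1 also stayed called (0.71 ± 0.19). There sinh-1 was called higher with the correction (0.97 ± 0.24), while with TMM alone it was -0.0021 and not called. Against N2 on that food the sinh-1 call was lost (0.10 ± 0.24). Averaged over EV and pha-4 RNAi with this correction, rsks-1 against N2 (-0.35 ± 0.09) and raga-1 against mxl-2 (0.32 ± 0.09) were called, where 14.2% and 12.9% of all genes passed, and none was called against eat-2, where 12.6% passed. Among those not called, rsks-1 passed at an unadjusted p under 0.05 against eat-2 (-0.23 ± 0.10) and mxl-2 (-0.21 ± 0.09). So did raga-1 against N2 (0.27 ± 0.09). DESeq2 and limma were not run with this correction.

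**Figure D4:**
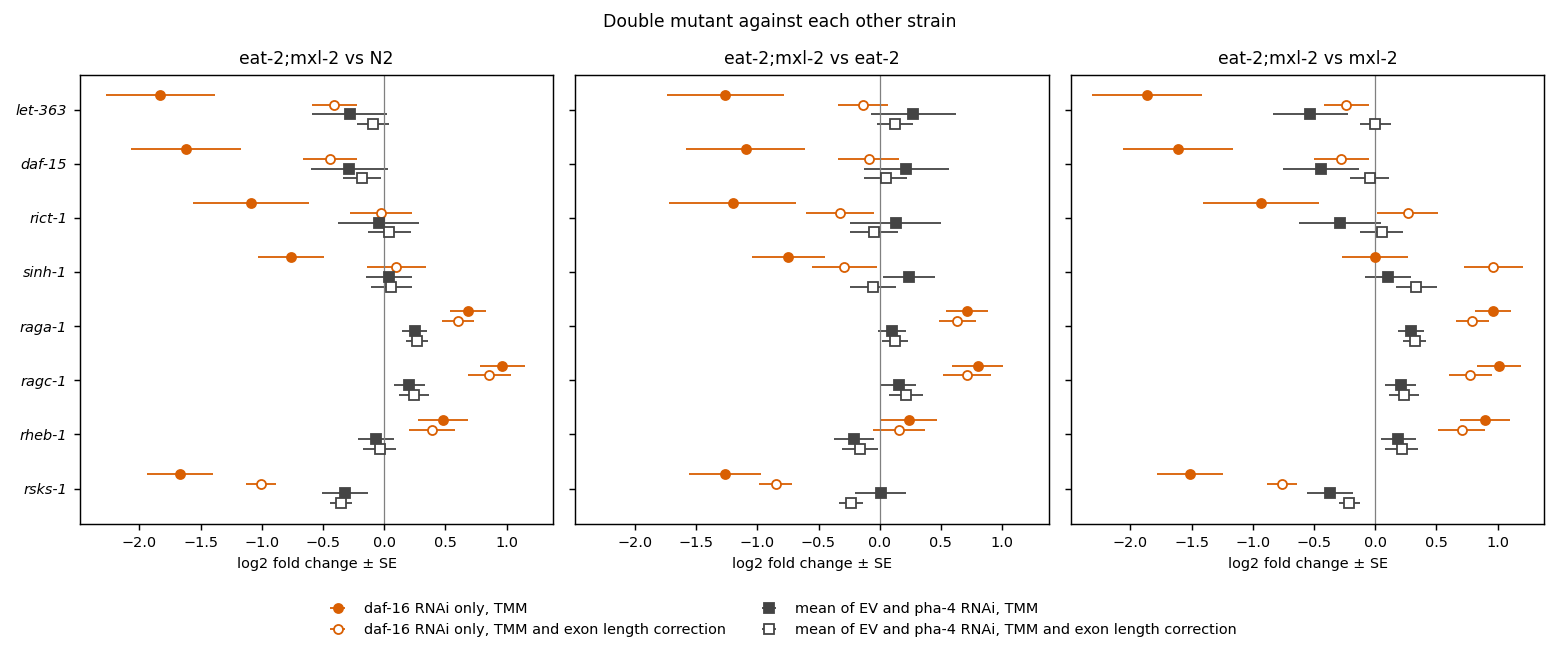
Log2 fold change ± SE of eat-2;mxl-2 over each other strain, for daf-16 RNAi alone (circles) and the mean of EV and pha-4 RNAi (squares), with TMM scaling (filled) and with the exon length trend also removed (open). On daf-16 RNAi, let-363 against N2 lies at -1.83 with TMM alone and at -0.41 with the correction, while rsks-1, raga-1 and ragc-1 stay on the same side of 0 with adjusted p under 0.05 in all 3 comparisons.

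Each single mutant was compared with N2 on the same 8 genes. None was called in eat-2 over the 3 foods, where the log2 fold changes ran from -0.56 to 0.18, against 14.6% of all genes. None was called in mxl-2 over the 3 foods either, against 6.75% of all genes. At an unadjusted p under 0.05 edgeR passed 0 and 1 of the 8 (rheb-1 in mxl-2, -0.31 ± 0.12, adjusted p = 0.113), and DESeq2 and limma called 0 in both. On EV alone edgeR called 0 of the 8 in all 5 strain comparisons. The share of all genes called was 7.86% in the double mutant against mxl-2, 18.4% against eat-2 and 12.1% against N2, 0.789% in eat-2 and 0.0288% in mxl-2. On EV alone 2 genes passed at an unadjusted p under 0.05 in the double mutant against mxl-2 and 2 against N2, and 0 in the other 3 comparisons, where DESeq2 and limma also called 0. In the comparison with N2 on EV DESeq2 called raga-1 (0.40 ± 0.13), and limma on TPM called raga-1 and ragc-1. In that with mxl-2 DESeq2 called rsks-1, and limma called raga-1 and ragc-1.

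RNAi gave no call among the 8 genes in N2, mxl-2 or eat-2. On daf-16 RNAi none was called by edgeR in N2, mxl-2 or eat-2, with 0.248%, 0.127% and 0.0115% of all genes called and 0 of the 8 at an unadjusted p under 0.05. Averaged over those 3 strains the log2 fold changes of the 8 genes lay between -0.11 and 0.21, with 1.07% of all genes called. On pha-4 RNAi the averages lay between -0.18 and 0.34, with 4.32% of all genes and 0 of the 8 genes called, and 0 at an unadjusted p under 0.05. Within N2, mxl-2 and eat-2 pha-4 RNAi called 0 of the 8 beside 0.323%, 0.887% and 1.17% of all genes, and 0 at an unadjusted p under 0.05. DESeq2 and limma called 0 of the 8 in each of these comparisons.

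In the double mutant, daf-16 RNAi called 1 of the 8 genes against the libraries labelled EV, with 9.55% of all genes called. This was ragc-1, with 337, 208 and 336 CPM on daf-16 RNAi and 170.5, 203 and 189 CPM in the libraries labelled EV, which did not overlap. It rose by 0.65 ± 0.18 (log2, SE, adjusted p = 0.0287 by edgeR). Leaving out any of 11 libraries ended the call, with values from 0.48 and adjusted p-values up to 0.194; these were each library labelled EV, daf-16 RNAi replicates 1 and 3 and pha-4 RNAi replicate 1 of the double mutant, eat-2 EV replicate 1 and both eat-2 pha-4 RNAi libraries, mxl-2 pha-4 RNAi replicate 2 and N2 daf-16 RNAi replicate 3. With the length trend removed it was 0.49 ± 0.18 (adjusted p = 0.0812), where 6.9% of all genes were called. With TMM alone, let-363 (-0.97 ± 0.44), sinh-1 (-0.54 ± 0.27) and rsks-1 (-0.70 ± 0.27) were not called, with adjusted p-values of 0.128, 0.171 and 0.082 by edgeR. Their values did not overlap between these groups either. The share of all genes without such overlap was not counted, so the lack of overlap is a description only. For daf-16 RNAi in the double mutant edgeR passed 5 of the 8 at an unadjusted p under 0.05. DESeq2 called rsks-1 (-0.84 ± 0.28, adjusted p = 0.0226), and limma on TPM called it too (-0.93, adjusted p = 0.0217). Both also called ragc-1. EdgeR with RLE factors (adjusted p = 0.0558) or a replicate block (0.103) did not call rsks-1. In fits of all 33 libraries, edgeR, DESeq2 and limma gave the double mutant libraries labelled pha-4 RNAi no call against those labelled EV. There edgeR called 1.49% of all genes. At an unadjusted p under 0.05 edgeR passed 1 of the 8 in that fit, rsks-1 (0.73 ± 0.27, adjusted p = 0.179). Fits of only these groups did call some of the 8, as given below. The pha-4 transcript runs against these labels, so that the direction of these differences holds for the labels only.

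Whether the eat-2 difference depends on mxl-2 was tested as an interaction over the 3 foods. It called raga-1 alone, at 0.43 ± 0.13 (adjusted p = 0.0431 by edgeR), against 6.89% of all genes. The call held in only 6 of the 33 refits that left out a library, with values from 0.30 to 0.48; these 6 left out N2 daf-16 RNAi replicate 1, N2 pha-4 RNAi replicate 3, mxl-2 pha-4 RNAi replicate 1 or 3, or double mutant replicate 2 on daf-16 RNAi or labelled pha-4 RNAi. Averaged over EV and pha-4 RNAi alone it was 0.14 ± 0.16 (adjusted p = 0.696). DESeq2 called raga-1 (0.39, adjusted p = 0.0114), while limma on TPM did not (0.49, adjusted p = 0.0634) and called ragc-1 instead (0.53, adjusted p = 0.0207). In edgeR the ragc-1 interaction was 0.39 ± 0.16 (adjusted p = 0.141) and for rsks-1 it was -0.40 ± 0.23 (0.308).

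Other genes of the pathway were read from 4 lists of known partners and outputs. Of 15 upstream regulators and partners, 4 were higher and 1 lower in the double mutant than in N2 over the 3 foods, with a median of 0.12 beside -0.05 for all genes (log2), of which 25.4% were called. The intestinal peptide transporter pept-1 rose by 1.27 ± 0.32 (adjusted p = 0.00527 by edgeR) and the AMP-activated kinase subunit aak-2 fell by 1.07 ± 0.18 (0.000154). The genes nprl-2 (0.55 ± 0.15) and nprl-3 (0.43 ± 0.13), whose counterparts in yeast and mammals restrain TORC1 when amino acids are scarce, also rose, though exons of other genes cover 27.8% of those of nprl-2. Of 6 AGC kinases 1 was higher (akt-1, 0.35 ± 0.11) and 2 were lower (akt-2, -0.52 ± 0.12, and sgk-1, -0.42 ± 0.15), with a median of -0.27. Of 10 translation genes 1 was higher and 1 lower, with a median of -0.29. The germline-expressed translation initiation factor gene ife-5 (an eIF4E) averaged 36.7 CPM in the double mutant and 8.78 CPM in N2 and rose by 2.07 ± 0.21 (adjusted p = 1.56e-07), while the elongation factor kinase efk-1 fell by 0.57 ± 0.10. Of 8 tested growth and autophagy genes 4 were lower and none higher, with a median of -0.64: hlh-30 (-1.01 ± 0.14, TFEB), unc-51 (the ULK kinase, adjusted p = 8.39e-05), pha-4 (-0.75 ± 0.21) and daf-16 (-0.59 ± 0.16), of which pha-4 and daf-16 are the targets of RNAi in some libraries.

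Against mxl-2, where 29.8% of all genes were called and their median was -0.04, the double mutant had 2 partners higher and 3 lower (median 0.15), and 2 of 6 AGC kinases lower (median -0.23). It had 1 translation gene higher and 1 lower (median -0.31), and of the growth and autophagy genes 1 higher and 6 lower (median -0.75). The nucleolar size regulator ncl-1 fell there by 1.16 ± 0.27 and aak-2 by 1.02 ± 0.18, and ife-5 rose by 1.96 ± 0.21. Against eat-2, with 23% of all genes called, the double mutant had ife-5 higher (1.94 ± 0.25), and lmtr-2 of the Ragulator complex (-0.37 ± 0.12), hlh-30 (-0.74 ± 0.15) and pha-4 (-0.96 ± 0.23) lower, with none of the AGC kinases called. In eat-2 against N2, with 14.6% of all genes called, efk-1 fell by 0.57 ± 0.12, aak-2 by 0.70 ± 0.21 and the protein kinase C gene pkc-2 by 0.54 ± 0.17, and no listed gene rose. In mxl-2 against N2, with 6.75% called, efk-1 fell by 0.52 ± 0.10, and the Ragulator genes lmtr-2 and lmtr-3 by 0.51 ± 0.11 and 0.31 ± 0.09. On daf-16 RNAi the Akt gene akt-2 averaged 11.9 CPM, against 27.3 CPM on EV, over N2, mxl-2 and eat-2 (-1.19 ± 0.14, adjusted p = 9.74e-06). On pha-4 RNAi pkc-2 averaged 51.1 CPM, against 34.97 CPM on EV, over the same strains (0.64 ± 0.17, adjusted p = 0.025). On daf-16 RNAi the double mutant had ife-4 at 16.6 CPM, against 8.44 CPM in libraries labelled EV (0.97 ± 0.28), and pkc-1 at 58.5 CPM, against 110.6 CPM (-0.92 ± 0.19). On EV alone ife-5 was also higher in the double mutant than in mxl-2 (1.86 ± 0.37), eat-2 (1.67 ± 0.42) and N2 (2.05 ± 0.37). The length balance moved with the strain comparisons as given above, and its part in the calls of listed genes was not tested.

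Markers of tissues also moved between libraries. The mean log2 CPM of 31 major sperm protein genes was 0.94 to 1.78 in double mutant libraries on daf-16 RNAi, 1.69 to 2.53 in those labelled pha-4 RNAi and 4.09 to 4.50 in those labelled EV. It was -2.97 to 2.73 in eat-2, -2.06 to 5.59 in mxl-2 and 1.85 to 4.83 in N2. With the sperm level as a covariate raga-1 was not called against eat-2 (0.29, adjusted p = 0.0574 by edgeR). Also lost with it were the ragc-1 call for daf-16 RNAi in the double mutant and the raga-1 call for the interaction of eat-2 with mxl-2. Over all foods, 8 oocyte and germline markers had mean log2 CPM of 6.92 to 9.67 in double mutant libraries and 8.60 to 9.47 in N2 libraries. The 5 intestine markers had 8.14 to 8.82 in double mutant libraries and 8.65 to 9.79 in N2 libraries, and 3 body muscle markers had 6.54 to 8.07 and 7.84 to 9.48 in these strains. In eat-2 libraries the germline, intestine and body muscle lists had 6.83 to 10.06, 7.13 to 9.04 and 6.68 to 8.57. In mxl-2 libraries they had 9.11 to 9.64, 8.78 to 10.01 and 8.02 to 10.31. No marker of the sperm, germline, intestine, muscle, pharynx, neuron or hypodermis lists was at 0 throughout a strain. Apart from the sperm level, the part of these tissues in the results was not tested.

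The genes whose log2 CPM was most like that of each TOR gene over the 33 libraries were looked up, with their exon lengths. For let-363 they were sel-2 (r = 0.99, 8126 exonic bases) and mrck-1 (0.99, 5515), and for daf-15 ubr-1 (0.99, 6633) and smk-1 (0.99, 4319). For raga-1 they were hpo-31 (0.91, 1488) and lpl-1 (0.91, 1096), for ragc-1 lcmt-1 (0.94, 1167) and bcs-1 (0.94, 1425), and for rheb-1 ubc-7 (0.95, 877) and dnj-16 (0.94, 1559). For rsks-1 they were fzr-1 (0.96, 2996) and unc-16 (0.96, 6249), for rict-1 fcho-1 (0.98, 3221) and trcs-2 (0.98, 2854), and for sinh-1 zfr-1 (0.88, 3312) and egrh-3 (0.86, 1039). Among the members, let-363 went with daf-15 at r = 0.99 and with rsks-1 at 0.93, and raga-1 with ragc-1 at 0.84. The r of let-363 with raga-1 was -0.66. These r values pool strains and foods and are descriptions only.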

How the data were processed

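Polyadenylated RNA of whole animals was sequenced in 33 libraries. The submitters' processing notes name FastQC, Trimmomatic, STAR 2.4.2a, RSEM 1.2.23, featureCounts 1.4.6-p5 and the genome build WBcel235, without roles; whether counting used strand is not given in the sources used here. The authors deposited whole-number counts per gene, not normalized, and TPM values; how the TPM were scaled is not given in the sources used here, and the deposited columns do not sum to the full TPM scale. Both tables list 17907 genes, each with at least 10 counts in some library. Every column matched a sample by name, and groups came from the titles. Gene positions are from the Ensembl annotation of WBcel235.

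Counts were tested with edgeR 4.0.16 (R 4.3.3): filterByExpr (17354 genes kept), TMM factors (0.782 to 1.56), 12 group means, glmQLFit and glmQLFTest, and Benjamini-Hochberg adjustment over all genes for 21 contrasts and 2 tests of several coefficients. SE is the absolute log2 fold change over the root of F. Log2 CPM used a prior count of 2. The fit was checked on simulated counts with known changes. Alternatives were DESeq2 1.42.0, limma 3.58.1 on log2(TPM + 0.5), DESeq2-style RLE factors, no filter, a replicate block, a sperm covariate, only the 2 groups compared, and each library left out. The exon length correction, the split by food, the crossed replicate block in eat-2 and the removal of 2 eat-2 libraries were chosen after seeing the data. Replicates differed beyond counting noise, with chi-square per degree of freedom from 10.5 to 680 over 30 pairs. Reads carry no molecular identifiers in the labels, so copies made in amplification are counted.

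All 8 genes were tested in each comparison, and those not named there are covered by a count or a range. Of the 4 pathway lists the at most 3 called genes with the largest absolute log2 fold change in a comparison are named. On EV and in single RNAi strains a few of these are left out for length. The further listed genes named against N2 (nprl-2, nprl-3, akt-1, akt-2, sgk-1, efk-1, hlh-30, unc-51, pha-4, daf-16) were chosen after their values were seen. So was lmtr-2 against eat-2. The genes most like a member are the 2 with a symbol, at least 5 CPM and the highest Pearson r. The 8 genes, the lists and the tests were chosen with earlier results of these data known.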

Additional observations from a re-analysis of the deposited data

Results flagged for a closer look

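The interaction of eat-2 with mxl-2 over the 3 foods was called for raga-1, though the call was lost in 27 of the 33 refits that left out a library. The log2 difference was 0.51 in eat-2;mxl-2 against mxl-2 and 0.09 in eat-2 against N2, a gap of 0.43 (adjusted p = 0.0431 by edgeR). On daf-16 RNAi alone the interaction was 0.99, and 0.83 with the exon length trend removed. Over the 3 foods with that trend removed it was 0.40. Averaged over EV and pha-4 RNAi alone, with TMM only, it was 0.14 (adjusted p = 0.696 by edgeR). The food effects on rsks-1 differed between the strains (F = 4.77 on 6 degrees of freedom, adjusted p = 0.0435 by edgeR). None of the 8 genes was called by that test in 21 of the 33 refits that left out a library, and with a replicate block the adjusted p for rsks-1 was 0.0762. In the double mutant rsks-1 averaged 70.0 CPM on daf-16 RNAi, 188 CPM in the libraries labelled pha-4 RNAi and 114 CPM in those labelled EV, while in N2 it averaged 223, 173 and 192 CPM on those foods.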

How the results depend on the processing

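Counts below are of the 8 genes called. For most of the alternative fits the share of all genes called is not given, so those counts cannot be judged against it. Setting each library aside in turn gave 3 to 7 in the test over the 12 groups, where 5 were called. The range was 3 to 5 in eat-2;mxl-2 against N2 over the 3 foods, 0 to 2 against eat-2 and 6 to 7 against mxl-2. It was 0 to 3 in eat-2 against N2 (3 without eat-2 EV replicate 1 or eat-2 daf-16 RNAi replicate 2), 0 to 1 in mxl-2 against N2 (1 without eat-2;mxl-2 daf-16 RNAi replicate 2), 0 to 3 for daf-16 RNAi in the double mutant (3 without that library), 0 to 2 for the interaction of eat-2 and mxl-2, and 0 to 3 for that of strain and food (0 in 21 of 33). On EV it was 0 to 1 in the double mutant against N2 and 0 to 2 against mxl-2, above 0 only without an eat-2 library on EV or daf-16 RNAi. The lowest counts of 3 came without eat-2;mxl-2 daf-16 RNAi replicate 1 or 3 over the 12 groups, and without eat-2;mxl-2 EV replicate 2 against N2. The rheb-1 call against mxl-2 was lost without eat-2 daf-16 RNAi replicate 1 (0.29, adjusted p = 0.0531 by edgeR).

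The replicate numbers did not pair the samples: of 168 same-numbered pairs of libraries 54 had correlated deviations over 0.1, and the r ran from -0.92 to 0.75. With a replicate block 3 genes were called over the 12 groups, 1 in the double mutant against eat-2, and 0 for each interaction; other counts stayed within 1.5 times. In eat-2 the deviations of same-numbered daf-16 RNAi and EV libraries ran opposite (r = -0.92). With 2 libraries per group both numbers give the same r, so it cannot tell crossed numbers from the libraries that stand apart. A crossed replicate block, chosen after these values were seen, called 180 of all genes and 0 of the 8.

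DESeq2 called 1 in the double mutant against N2 on EV, 1 against mxl-2 on EV, 2 for daf-16 RNAi in the double mutant and 2 for strain by food. Limma on TPM called 2, 2 and 2 in the first 3 of these, and 3 in the double mutant against N2 over the 3 foods. RLE factors, and no filter on low counts, each gave 0 for daf-16 RNAi in the double mutant and 0 for the interaction of eat-2 and mxl-2. With the sperm covariate there was 1 against eat-2 over the 3 foods and 1 against N2 on EV. Fits of only the 2 groups gave 5 against N2 on EV, 3 against mxl-2 on EV, 4 for daf-16 RNAi and 4 for pha-4 RNAi in the double mutant.

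The exon length correction gave 1 against N2 and 1 against mxl-2 on EV for the double mutant, 3 against N2 over the 3 foods, 1 in mxl-2 against N2 and 0 for daf-16 RNAi in the double mutant. On daf-16 RNAi alone with it there were 3 in the double mutant against N2 and 1 in mxl-2 against N2. Averaged over EV and pha-4 RNAi only, and on pha-4 RNAi only, there were 0 in the double mutant against each strain and 0 for the interaction. Averaged so with the length correction there were 1 against N2, 1 against mxl-2, 0 against eat-2 and 0 for the interaction. The sign turned on pha-4 RNAi alone for daf-15 (0.0067), let-363 (0.0331) and rsks-1 (0.1194) against N2 and for rsks-1 (0.0431) against mxl-2. It also turned for let-363 against mxl-2 (0.0013) with the length correction over EV and pha-4 RNAi, and none of these 5 values was called. The cause was not tested.

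Without the 2 eat-2 libraries that stand apart there were 5 against eat-2 over the 3 foods (ragc-1 no longer among them), 5 for the interaction, 6 for strain by food, 5 for daf-16 RNAi and 1 for pha-4 RNAi in the double mutant, 3 against N2 on EV, 3 against mxl-2 on EV and 1 in mxl-2 against N2. The ragc-1 call for daf-16 RNAi in the double mutant was also lost without these libraries. The eat-2 groups on EV and daf-16 RNAi then have 1 library each, which is assumed to vary like the other groups. All 8 genes had at least 269 counts in each library, so that spread between libraries and not depth limits these comparisons.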
